A study of Homo sapiens with 6 samples.

Results

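The transcripts described here are those of p53 target genes and of the apoptosis machinery, read in A549 cells, a human lung cancer line with wild-type p53, after MYEOV was lowered by siRNA. The set holds 42 genes chosen by name, and a row belonged to it when the platform annotation gave it one of these symbols. Of the 42 genes, 22 had a named row, out of 14884 genes with one in the whole table, and each of the 22 had a single row. The other 20 are not analysed here: CDKN1A, MDM2, BTG2, GADD45A, PPM1D, ZMAT3, FBXW7, XPC, DDB2, POLH, FDXR, FAS, TNFRSF10B, PHLDA3, CYCS, CASP2, CASP6, CASP8, CASP9 and DIABLO. The canonical readouts of p53 activity CDKN1A and MDM2, and every caspase of the set, are among these 20.

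The groups were MYEOV siRNA 1, MYEOV siRNA 2 and a control siRNA, with 2 arrays each. Cells of all groups were transfected with Lipofectamine RNAiMAX and total RNA was taken 48 hours later. Untransfected cells were not analysed here, so an effect of transfection itself would be shared by the 3 groups. The labels do not say whether the arrays of a group came from separate transfections, so the spread behind each p-value is that between arrays and may be only technical.

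p53 is a transcription factor that is kept low by MDM2 and stabilised by DNA damage and other stress. Its targets arrest the cell cycle, repair DNA, adjust metabolism or start apoptosis. In the mitochondrial route, BH3-only proteins such as PUMA (BBC3), BIM (BCL2L11) and BAD each counter some or all of BCL2, BCL-XL (BCL2L1) and MCL1. This frees BAX and BAK to release cytochrome c. Cytochrome c then assembles APAF1 into the apoptosome, which activates initiator caspases, and XIAP and BIRC2 restrain the pathway.

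Values are log2 RMA signals, in which a difference of 1 is a 2-fold difference of signal. A signal is compared only between arrays for the same gene, since probes differ in brightness. Genes were tested with limma over all 6 arrays when their mean was at or above 5.45, the median over genes, and a call means a p, adjusted by Benjamini-Hochberg over all 7442 genes tested, under 0.05. Of the 22 genes, 19 passed this filter. TP53INP1, BCL2 and BCL2L11 did not. In an exact permutation test the smallest p for 2 arrays against 2 is 0.333, so the calls rest on the spread that limma shares between genes.

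MYEOV itself was lower on the 4 arrays of its siRNAs, with 5.34 and 5.19 for siRNA 1, 5.23 and 4.70 for siRNA 2 and 6.20 and 6.50 for control. Of 5 epithelial markers 4 had a row, with KRT18 between 11.79 and 12.09, KRT19 between 5.30 and 5.75, EPCAM between 6.92 and 7.27 and KRT8 at or above 6.45, while CDKN2A, a gene deleted in A549, ran from 2.90 to 3.50. The markers PECAM1 and VWF of endothelium, DCN of fibroblasts and CD14 of blood cells lay at or under 4.66 on every array. The array medians lay between 4.08 and 4.10.

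The promoters of 4 of the genes are shown because the values below turn on them: APAF1, the gene of the set that was called, GDF15 and SESN2, which moved together between arrays, and AEN, a p53 target whose promoter held a match to the p53 decamer. Each is the 250 bases before the transcription start in the RefSeq annotation of GRCh38.p14, on the plus strand, with motif matches in capitals.
APAF1, chr12:98645040-98645289: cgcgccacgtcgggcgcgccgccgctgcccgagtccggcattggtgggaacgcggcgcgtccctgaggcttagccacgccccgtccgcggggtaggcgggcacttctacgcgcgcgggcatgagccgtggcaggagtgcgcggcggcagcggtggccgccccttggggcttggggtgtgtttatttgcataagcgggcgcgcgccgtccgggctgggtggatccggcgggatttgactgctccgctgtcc
GDF15, chr19:18385908-18386157: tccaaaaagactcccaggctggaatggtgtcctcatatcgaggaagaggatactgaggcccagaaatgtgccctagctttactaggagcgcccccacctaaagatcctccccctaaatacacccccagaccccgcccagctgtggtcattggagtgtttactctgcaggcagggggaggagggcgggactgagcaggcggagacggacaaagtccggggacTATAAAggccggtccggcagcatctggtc
SESN2, chr1:28259268-28259517: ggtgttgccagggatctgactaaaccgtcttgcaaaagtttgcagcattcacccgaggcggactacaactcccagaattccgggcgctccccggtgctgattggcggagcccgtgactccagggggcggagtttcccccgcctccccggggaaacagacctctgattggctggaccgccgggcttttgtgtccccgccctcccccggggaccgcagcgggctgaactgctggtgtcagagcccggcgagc
AEN, chr15:88621090-88621339: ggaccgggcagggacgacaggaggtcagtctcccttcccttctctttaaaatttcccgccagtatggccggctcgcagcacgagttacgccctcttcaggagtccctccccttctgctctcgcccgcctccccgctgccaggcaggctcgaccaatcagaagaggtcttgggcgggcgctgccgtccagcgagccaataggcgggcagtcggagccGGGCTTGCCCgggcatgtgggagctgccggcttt
Windows were searched on both strands for the p53 decamer consensus, the C/EBP-ATF core TGATGNAA, the E2F site TTTNGCGC and the TATA box TATAAA. Of 35116 promoter windows of this length, 5.57%, 3.14%, 1.51% and 10.7% held a match. AEN had a decamer between 34 and 25 bases before the start, where the symmetric consensus matches either strand, and GDF15 a TATA box between 29 and 24 bases before it. The APAF1 and SESN2 windows held none of these letters. Windows of 19 of the 22 genes with a row were searched, which are not the 19 tested genes. RRM2B, TP53INP1 and MCL1 were not searched, while the dim BCL2 and BCL2L11 were. The chromosome of RRM2B and TP53INP1 was left out for the set but not for the count over all genes. A gene counted when any of its windows held a match, and genes differ in their number of windows, from 1 for APAF1 to 5 for BID. The counts for the set and the shares over all genes are therefore not strictly like for like. A p53 decamer was found for 3 of the 19 genes searched (AEN, BAK1 and SESN1), against 6.8% of all 27305 genes with a window. The E2F letters TTTNGCGC were found for BCL2L1 alone among the 19 searched, against 1.84% of all genes. Other forms of the E2F site were not searched, so a window without these letters may still hold such a site. The TATA box was found for 2 (GDF15 and BCL2L1), against 13.0%, and the C/EBP-ATF core for 0, against 3.89%. The p53 decamer is a half-site, and bases outside the windows were not searched for any motif. A match is a description of the letters and not of binding.

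With siRNA 1, the apoptosome scaffold APAF1 fell and no other of the 19 tested genes was called. In this comparison 2.38% of all tested genes were called lower and 2.28% higher, 4.66% in either direction, against 1 of 19 here, or 5.26%, a share near that of all genes. At an unadjusted limma p under 0.05 there was 1 gene higher and there were 3 lower, 21.1% of the 19 against 19.2% of all genes tested. The median log2 difference from control of the 19 genes was -0.09, against 0.00 (-0.0027) over all genes tested. Both arrays of siRNA 1 lay above both control arrays for 3 genes and below them for 5, against 24.4% of all genes in each direction.

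With siRNA 2, APAF1 fell further and was again the 1 gene called lower, with 0 called higher. Here 4.23% of all tested genes were called lower and 2.59% higher, 6.83% in either direction, against 5.26% of the 19. At an unadjusted limma p under 0.05 there were 2 genes higher and 3 lower, 26.3% of the 19 against 22.2% of all genes tested. The median log2 difference was -0.09, against 0.00 (0.0005) over all genes tested. Both arrays of siRNA 2 lay above both control arrays for 3 genes and below them for 5, against 25% and 25.6% of all genes. All 4 siRNA arrays lay above both control arrays for 2 of the 19 genes, RRM2B and BAD, and below them for 2, APAF1 and MCL1, against 12% and 10.9% of all genes. The comparisons of siRNA 1 and of siRNA 2 use the same 2 control arrays, so their values are not independent.

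The difference between siRNA 1 and siRNA 2 was called for 1 of the 19 genes, again APAF1, which was higher with siRNA 1. Over all tested genes 5.37% were called higher with siRNA 1 than with siRNA 2, and 3.78% lower, 9.15% in either direction. At an unadjusted limma p under 0.05 there were 2 genes higher and 1 lower with siRNA 1, 15.8% of the 19 against 23.6% of all genes tested. Both arrays of siRNA 1 lay above both of siRNA 2 for 5 genes and below them for 4, against 27.1% and 27.5% of all genes.

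**Figure D1:**
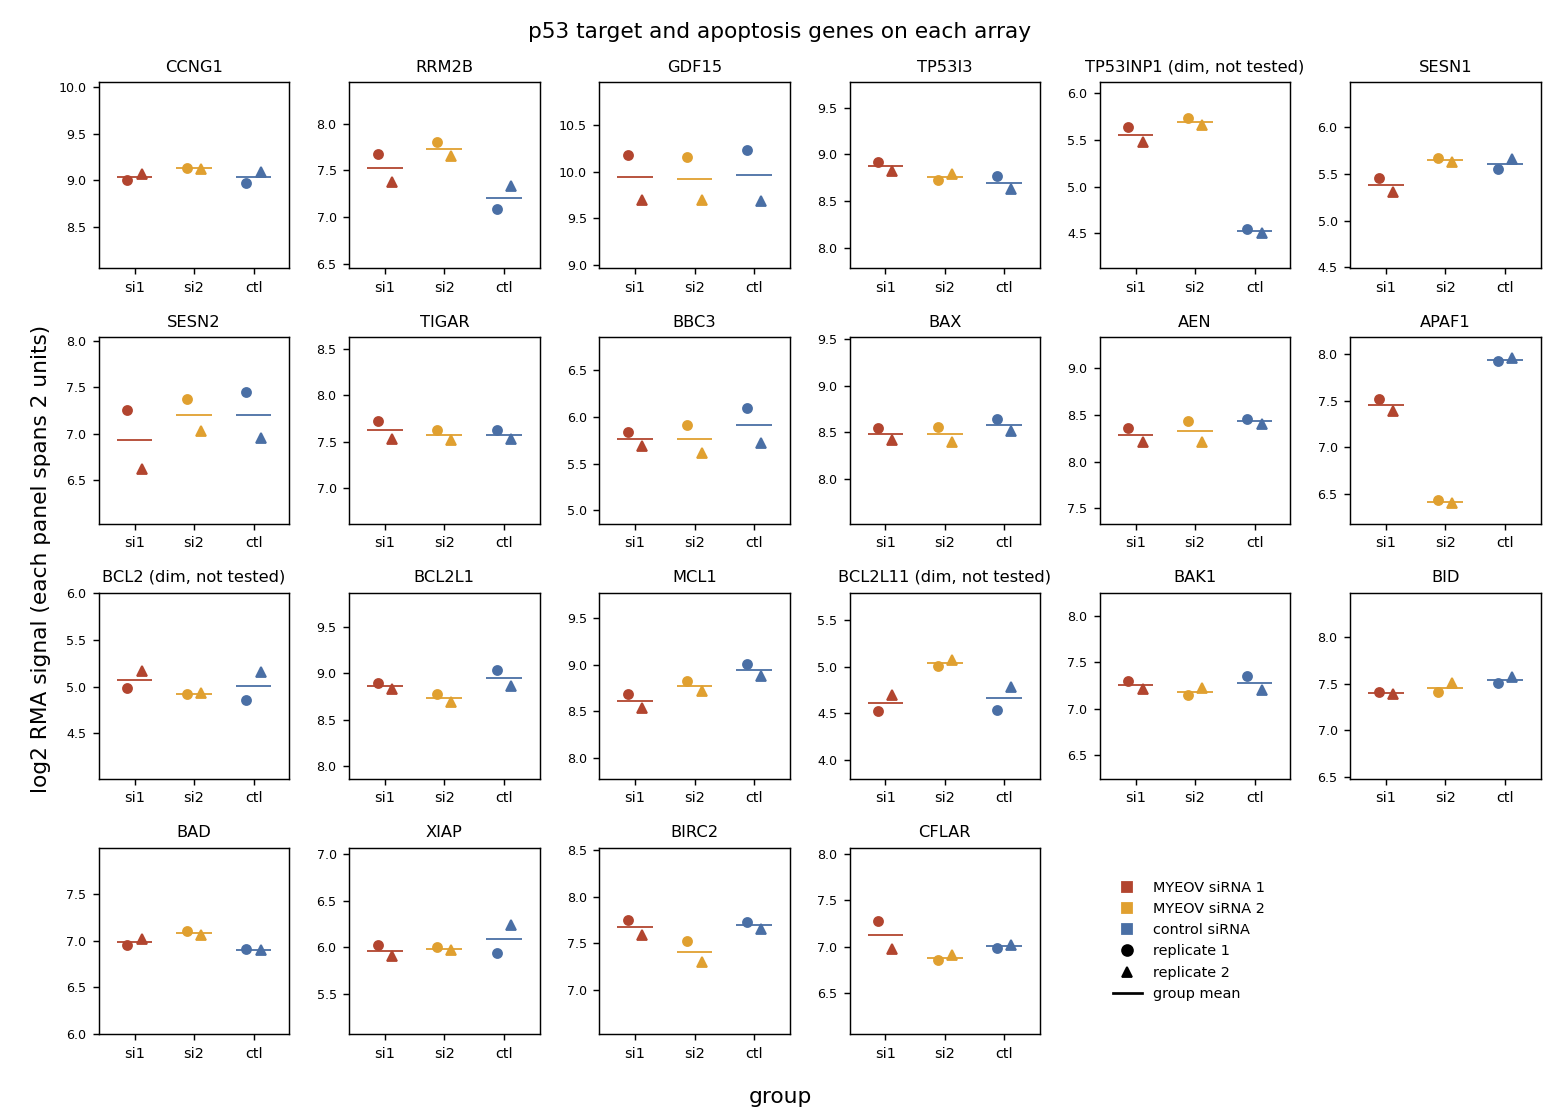
Log2 RMA signal of the 22 genes on each array, with 1 panel per gene spanning 2 log2 units; circles are replicate 1, triangles replicate 2, lines group means, from left to right MYEOV siRNA 1 (si1), MYEOV siRNA 2 (si2) and control siRNA (ctl). APAF1 and TP53INP1 stand out by the distance between their groups, while for GDF15 and SESN2 the 2 arrays of a group lie farther apart than the group means.

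Among the p53 targets of arrest and nucleotide supply, CCNG1 and RRM2B had rows. CCNG1, cyclin G1, which acts back on MDM2, lay between 8.97 and 9.13 on all arrays, with a mean signal of 9.03 with siRNA 1, 9.13 with siRNA 2 and 9.03 in control. Both arrays of siRNA 2 were the highest. Its log2 difference from control was 0.00 (0.0043, 95% interval -0.17 to 0.18) with siRNA 1 and 0.10 (-0.07 to 0.27) with siRNA 2. RRM2B, the p53-inducible subunit of ribonucleotide reductase, had 7.68 and 7.37 with siRNA 1, 7.81 and 7.66 with siRNA 2 and 7.08 and 7.33 in control. All 4 siRNA arrays were above both control arrays, with the lowest siRNA array at 7.37 against the highest control array at 7.33. The log2 difference was 0.52 ± 0.13 (SE) with siRNA 2 (limma, Benjamini-Hochberg adjusted p = 0.0590) and 0.32 ± 0.13 with siRNA 1 (adjusted p = 0.243). The siRNA 2 value passed the threshold with quantile normalization, with a trend and robust prior, and among genes at or above the 75th percentile (adjusted p = 0.0494, 0.0275 and 0.0180). It did not with no filter (0.240) or with any array left out (0.0580 to 0.232).

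TP53INP1, a stress protein that promotes p53 activity and autophagy, had the largest rise in signal of the 22 genes but was too dim for the filter. Its signal was 5.64 and 5.48 with siRNA 1, 5.74 and 5.66 with siRNA 2 and 4.54 and 4.50 in control. All 4 siRNA arrays were above both control arrays, the lowest of them at 5.48 against 4.54 for the higher control, and the arrays of a group differed by at most 0.16. Its control level is near the array medians, where RMA compresses differences. In the limma fit with no filter, over 14884 genes, the log2 difference was 1.03 ± 0.10 (SE) with siRNA 1 (Benjamini-Hochberg adjusted p = 0.0276) and 1.17 ± 0.10 with siRNA 2 (adjusted p = 0.0115). In that fit 0.114% of all genes were called higher and 0.148% lower with siRNA 1, 0.289% and 0.645% with siRNA 2, and 0.82% and 0.49% between siRNA 1 and siRNA 2. Of the 22 genes, TP53INP1 was the 1 called with siRNA 1, while TP53INP1 and APAF1 were called with siRNA 2 and APAF1 alone between the siRNAs. With siRNA 1 the call was lost when any of the 6 arrays was left out (adjusted p from 0.106 to 0.234), and with siRNA 2 when either of its own or either control array was left out (0.109 to 0.117). The difference between siRNA 1 and siRNA 2 was -0.14 (interval -0.37 to 0.09).

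The other p53 targets of metabolism and stress were not called. GDF15, a secreted stress cytokine, had 10.18 and 9.70 with siRNA 1, 10.16 and 9.70 with siRNA 2 and 10.23 and 9.69 in control. In each of the 3 groups replicate 1 was the higher array, by 0.46 to 0.54, while the group means differed by at most 0.03. SESN2, a sestrin that restrains mTORC1, had 7.25 and 6.62 with siRNA 1, 7.37 and 7.03 with siRNA 2 and 7.45 and 6.95 in control. Replicate 1 was again the higher array of each group, by 0.35 to 0.63, and the groups overlapped. The 95% interval of the log2 difference reached 0.56 to either side of the estimate for GDF15 and 0.57 for SESN2, in a fit that takes no account of the replicate number. The log2 differences from control were -0.02 with siRNA 1 and -0.03 with siRNA 2 for GDF15, and -0.26 and 0.00 (0.0008) for SESN2. SESN1, the related sestrin, had 5.46 and 5.30 with siRNA 1, 5.67 and 5.63 with siRNA 2 and 5.55 and 5.66 in control. Both siRNA 1 arrays were below the other 4, with a log2 difference of -0.23 from control (limma adjusted p = 0.189) and -0.27 from siRNA 2 (adjusted p = 0.0957).

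TP53I3, a quinone oxidoreductase, had 8.92 and 8.83 with siRNA 1, 8.73 and 8.79 with siRNA 2 and 8.76 and 8.63 in control. Both arrays of siRNA 1 were above the other 4, the lower of them at 8.83 against 8.79, and the log2 difference from control of 0.18 had an interval of -0.01 to 0.36. TIGAR, a phosphatase that slows glycolysis, stayed between 7.52 and 7.73 on all arrays, with log2 differences of 0.05 (interval -0.17 to 0.26) for siRNA 1 and -0.01 (-0.22 to 0.21) for siRNA 2.

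BBC3, BAX and AEN, the tested genes grouped here as p53 targets of the death arm, were not called in any of the 3 comparisons. APAF1, which was called, is grouped here with the apoptosome and is given below. BBC3, PUMA, had 5.83 and 5.69 with siRNA 1, 5.92 and 5.61 with siRNA 2 and 6.10 and 5.72 in control. BAX, the pore-forming effector, had 8.54 and 8.42 with siRNA 1, 8.56 and 8.39 with siRNA 2 and 8.65 and 8.52 in control. AEN, an exonuclease that degrades DNA in apoptosis and whose promoter holds the p53 decamer shown above, had 8.36 and 8.21 with siRNA 1, 8.44 and 8.22 with siRNA 2 and 8.46 and 8.40 in control. The arrays of all 3 groups overlapped for BBC3 and BAX, and for AEN both siRNA 1 arrays were below both control arrays. The log2 differences from control were -0.15, -0.10 and -0.15 with siRNA 1 and -0.14, -0.11 and -0.11 with siRNA 2, in the order BBC3, BAX and AEN. Their upper 95% limits were 0.20, 0.12 and 0.08 for siRNA 1 and 0.21, 0.11 and 0.12 for siRNA 2.

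APAF1 had 7.52 and 7.39 with siRNA 1, 6.43 and 6.40 with siRNA 2 and 7.92 and 7.96 in control. The 3 groups did not overlap, with siRNA 2 lowest and control highest. The log2 difference from control was -0.49 ± 0.07 (SE, interval -0.66 to -0.32) with siRNA 1 (limma, Benjamini-Hochberg adjusted p = 0.0159), a signal 71.2% of that in control. It was -1.53 ± 0.07 (interval -1.70 to -1.36) with siRNA 2 (adjusted p = 0.000142), a signal 34.7% of control. The log2 difference between siRNA 1 and siRNA 2 was 1.04 ± 0.07 (adjusted p = 0.000392). The siRNA 1 call was lost with no filter (adjusted p = 0.136) and without siRNA 1 replicate 1, siRNA 1 replicate 2, control replicate 1 or control replicate 2 (adjusted p = 0.0531, 0.120, 0.0720 and 0.0885), whereas the siRNA 2 call and the difference between the siRNAs held in every alternative that tested the gene. The siRNA sequences were not among the sources used here, so a match of either siRNA to APAF1 was not tested.

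**Figure D2:**
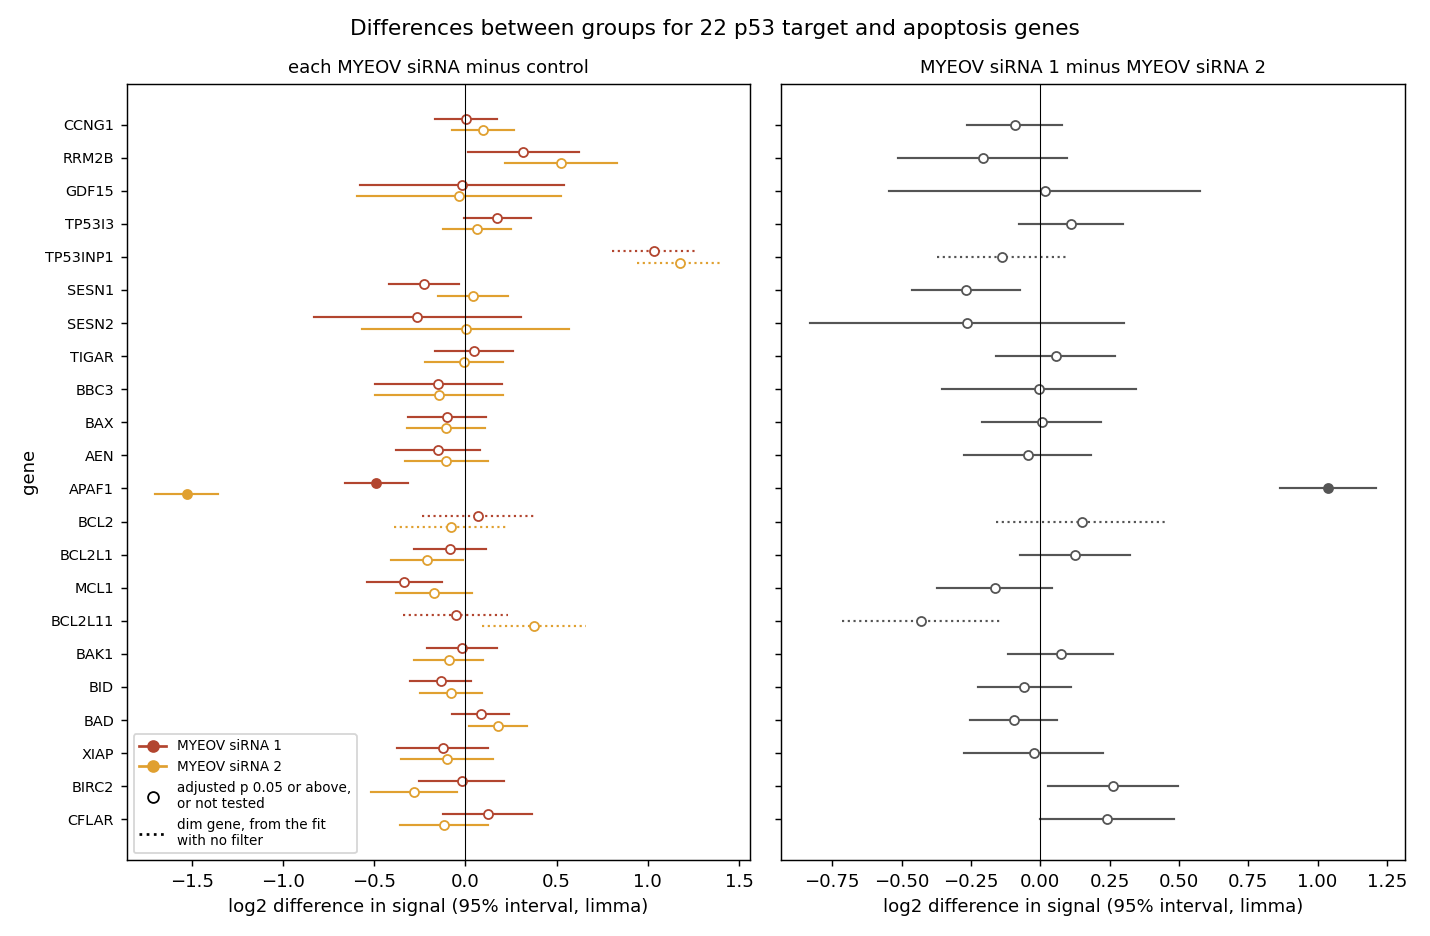
Log2 difference in signal with its 95% limma interval for the 22 genes. The left side gives each MYEOV siRNA minus control and the right side siRNA 1 minus siRNA 2. Filled points have an adjusted p under 0.05 in the fit with the filter. Dotted intervals are of dim genes from the fit with no filter, and their points are open whatever their adjusted p in that fit. APAF1 lies at -0.49 and -1.53, TP53INP1 at 1.03 and 1.17, and the intervals of most other genes include 0.

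Of the anti-apoptotic BCL2 family genes tested, MCL1 had the larger difference from control with siRNA 1, and BCL2L1 with siRNA 2. MCL1, a short-lived guard of BAK, had 8.68 and 8.54 with siRNA 1, 8.83 and 8.72 with siRNA 2 and 9.01 and 8.88 in control. All 4 siRNA arrays were below both control arrays. The log2 difference was -0.34 ± 0.09 (SE) with siRNA 1 (limma, Benjamini-Hochberg adjusted p = 0.0870) and -0.17 ± 0.09 with siRNA 2 (adjusted p = 0.320). With the replicate block, given in the last section, MCL1 was called with siRNA 1, though the labels do not establish a pairing. The siRNA 1 value passed the threshold among genes at or above the 75th percentile and with a trend and robust prior (adjusted p = 0.0308 and 0.0355), and it did not with no filter (0.308) or with any array left out (0.115 to 0.347).

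BCL2L1, BCL-XL, had 8.90 and 8.83 with siRNA 1, 8.78 and 8.70 with siRNA 2 and 9.04 and 8.86 in control. Both siRNA 2 arrays were the lowest, with a log2 difference of -0.21 from control (limma adjusted p = 0.199), against -0.09 (adjusted p = 0.648) for siRNA 1. BCL2 was dim, between 4.86 and 5.16 on all arrays, and its groups overlapped between each siRNA and control.

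Among effectors and BH3-only proteins, BCL2L11, BIM, was dim and highest with siRNA 2. It had 4.52 and 4.69 with siRNA 1, 5.01 and 5.07 with siRNA 2 and 4.54 and 4.78 in control. Both siRNA 2 arrays were above the other 4, and in the limma fit with no filter the log2 difference from control was 0.38 ± 0.12 (SE, adjusted p = 0.276), while siRNA 1 minus siRNA 2 was -0.43 ± 0.12 (adjusted p = 0.199). BAD had 6.96 and 7.02 with siRNA 1, 7.10 and 7.06 with siRNA 2 and 6.91 and 6.90 in control. All 4 siRNA arrays were above both control arrays, by small amounts, and the log2 differences were 0.08 (interval -0.07 to 0.24) and 0.18 (0.02 to 0.34, limma adjusted p = 0.176). BAK1, the second pore-forming effector, ran from 7.15 to 7.35 on all arrays with overlapping groups. BID, which CASP8 cleaves to link death receptors to mitochondria, ran from 7.39 to 7.57, with a log2 difference of -0.14 from control for siRNA 1 (limma adjusted p = 0.362) and -0.08 for siRNA 2 (adjusted p = 0.591).

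The inhibitors of apoptosis were not called. BIRC2, a ubiquitin ligase of the TNF receptor complex, had 7.75 and 7.58 with siRNA 1, 7.52 and 7.30 with siRNA 2 and 7.72 and 7.65 in control. Both siRNA 2 arrays were below the other 4, with a log2 difference of -0.28 from control (limma adjusted p = 0.156), and siRNA 1 minus siRNA 2 was 0.26 (adjusted p = 0.166). CFLAR, the FLIP protein that blocks CASP8 at death receptors, had 7.27 and 6.98 with siRNA 1, 6.86 and 6.91 with siRNA 2 and 6.98 and 7.02 in control. Both siRNA 2 arrays were lowest, with a log2 difference of -0.12 from control (interval -0.36 to 0.12). XIAP, which binds and blocks active caspases, ran from 5.90 to 6.23 on all arrays, with log2 differences of -0.12 with siRNA 1 and -0.10 with siRNA 2, and its groups overlapped.

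For the genes that were not called, the intervals give the range of differences around each estimate. They are not adjusted for the number of genes tested, so they do not show which differences would have been called. Several genes had intervals that exclude 0 and were not called. With siRNA 1 these were RRM2B (0.01 to 0.62), MCL1 (-0.54 to -0.13) and SESN1 (-0.42 to -0.03). With siRNA 2 they were RRM2B (0.22 to 0.83), BAD, BCL2L1 and BIRC2. Between siRNA 1 and siRNA 2 they were SESN1 and BIRC2. The 95% interval of a log2 difference extended from 0.16 to 0.57 to either side of its estimate across the 19 genes, with a median of 0.21. Every interval lay within 1 log2 unit of 0 for siRNA 1, and 18 of 19 did for siRNA 2, the exception being APAF1. Between siRNA 1 and siRNA 2 it was again 18 of 19, with APAF1 the exception.

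Across the set, arrays of the same replicate number shared part of their differences. Replicate 1 was above replicate 2 in all 3 groups for 9 of the 19 tested genes and below it in all 3 for 0, against 19.3% and 18% of all genes tested. The 9 were GDF15, SESN2, BBC3, BIRC2, AEN, BAX, TIGAR, MCL1 and BCL2L1. In the list of other p53 targets, replicate 1 was the higher array in all 3 groups for 16 of 32 tested genes and the lower one for 3. In the list of genes that p53 lowers through p21 and the DREAM complex, replicate 1 was the higher array in all 3 groups for 0 of 15 tested genes and the lower one for 8. The counts were 1 and 5 of 14 for the other apoptosis genes and 1 and 2 of 10 for the p53 regulators. EDA2R, ATF3 and PMAIP1, chosen after their values were seen, had replicate 1 higher by 0.43 to 0.51, 0.35 to 0.64 and 0.34 to 0.36. What the replicate number marks was not stated in the labels.

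**Figure D3:**
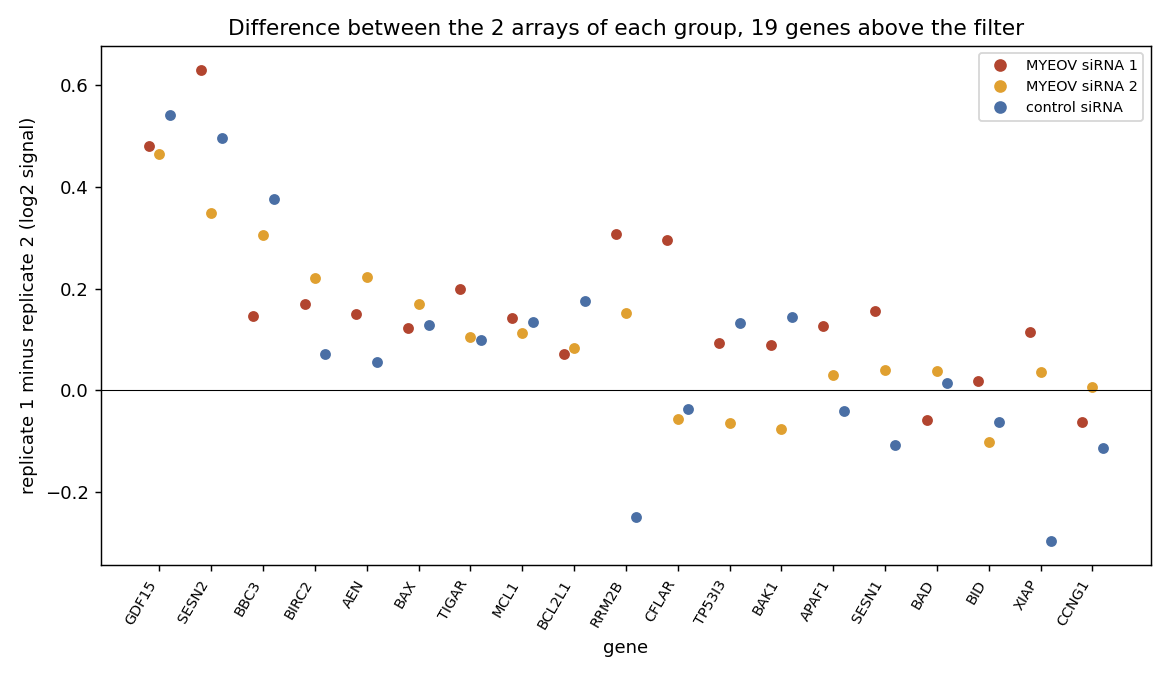
Replicate 1 minus replicate 2 in log2 signal for each of the 19 genes above the filter, with 1 point per group, ordered by the mean over groups. GDF15 and SESN2 lie between 0.35 and 0.63 in all 3 groups.

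Related genes were followed in 4 lists that do not overlap the set. Their counts are read against all genes tested, of which 4.66%, 6.83% and 9.15% were called and 19.2%, 22.2% and 23.6% had an unadjusted limma p under 0.05 for siRNA 1 against control, siRNA 2 against control and siRNA 1 against siRNA 2. Of the p53 regulators, which include kinases and ubiquitin ligases acting on p53, 12 of 18 had a row and 10 were tested, with 0 called by limma in any comparison and 1, 3 and 4 at an unadjusted p under 0.05 in the same order. Their median log2 difference was 0.00 (-0.0019) with siRNA 1 and -0.06 with siRNA 2. Of the other apoptosis genes, 19 of 34 had a row and 14 were tested, with 0 called in any comparison and 1, 1 and 2 at an unadjusted limma p under 0.05. Their median was -0.02 with siRNA 1 and 0.00 (-0.0042) with siRNA 2.

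Of the other p53 targets, 34 of 48 had a row and 32 were tested, with a median log2 difference of -0.03 with siRNA 1 and -0.01 with siRNA 2. With siRNA 1, 1 was called higher and 2 lower, and with siRNA 2, 0 were called higher and 1 lower. At an unadjusted limma p under 0.05 there were 4 higher and 4 lower with siRNA 1 and 5 higher and 2 lower with siRNA 2, or 25% and 21.9% of the 32. DRAM1, a lysosomal protein that p53 induces to promote autophagy, had 7.94 and 7.80 with siRNA 1, 7.55 and 7.48 with siRNA 2 and 7.24 and 7.15 in control. The 3 groups did not overlap. DRAM1 rose by 0.68 ± 0.08 (SE) on the log2 scale with siRNA 1 (limma, Benjamini-Hochberg adjusted p = 0.00668) and differed by 0.36 ± 0.08 between siRNA 1 and siRNA 2 (adjusted p = 0.0374). With siRNA 2 it was higher than in control by 0.32, the largest rise of the 32 genes in that comparison, and was not called. The rise with siRNA 1 lost its call with no filter (adjusted p = 0.0797) and without siRNA 1 replicate 1 or control replicate 2 (0.0503 and 0.0537). The adjusted p of the difference between the siRNAs was 0.186 with no filter, 0.0531 with only the 2 groups compared and 0.0531 to 0.185 with any array left out.

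ACER2, an alkaline ceramidase, had 5.94 and 5.68 with siRNA 1, 5.99 and 5.92 with siRNA 2 and 6.53 and 6.37 in control. All 4 siRNA arrays were below both control arrays, and the log2 differences were -0.64 ± 0.11 (limma adjusted p = 0.0226) and -0.50 ± 0.11 (adjusted p = 0.0382). FBXO22, a ubiquitin ligase subunit, had 7.90 and 7.78 with siRNA 1, 8.10 and 8.09 with siRNA 2 and 8.27 and 8.21 in control, and its fall with siRNA 1 was -0.40 ± 0.07 (limma adjusted p = 0.0334). The ACER2 calls were lost with no filter (adjusted p = 0.140 with siRNA 1 and 0.192 with siRNA 2), and the FBXO22 call with no filter (0.190), with its 2 rows averaged (0.0730), with only the 2 groups compared (0.0594) and without any 1 array (0.0594 to 0.183). Leaving out siRNA 1 replicate 2, control replicate 1 or control replicate 2 ended the ACER2 call with siRNA 1 (adjusted p = 0.123, 0.115 and 0.0708), and leaving out either siRNA 2 array or either control array ended that with siRNA 2 (0.0765 to 0.165).

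Genes that p53 lowers through p21 and the DREAM repressor complex, mostly mitotic genes, had a row for 15 of 16 members, all tested. With siRNA 1, 0 were called and 1 had an unadjusted limma p under 0.05, with a median log2 difference of -0.08. With siRNA 2, 2 were called lower, against 4.23% of all genes, 3 had an unadjusted limma p under 0.05, or 20% of the 15, and the median was -0.02. MYBL2, B-MYB, had a log2 difference of -0.59 ± 0.07 with siRNA 2 (limma adjusted p = 0.00379), with a signal of 9.46 and 9.49 with siRNA 2 and 10.03 and 10.11 in control. CKS1B, a cyclin-dependent kinase subunit, had -0.32 ± 0.07 with siRNA 2 (adjusted p = 0.0368), with a signal of 7.46 and 7.51 with siRNA 2 and 7.78 and 7.84 in control. Both were higher with siRNA 1 than with siRNA 2, by 0.51 (limma adjusted p = 0.00602) and 0.33 (0.0262). The siRNA 2 call of CKS1B was lost with no filter, with only the 2 groups compared and without any 1 array (adjusted p from 0.0757 to 0.215). The difference between the siRNAs lost its call for CKS1B with no filter (0.161) and without any of the 4 siRNA arrays (0.0858 to 0.139), and for MYBL2 with no filter (0.0600) and without siRNA 1 replicate 2 (0.0576).

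**Figure D4:**
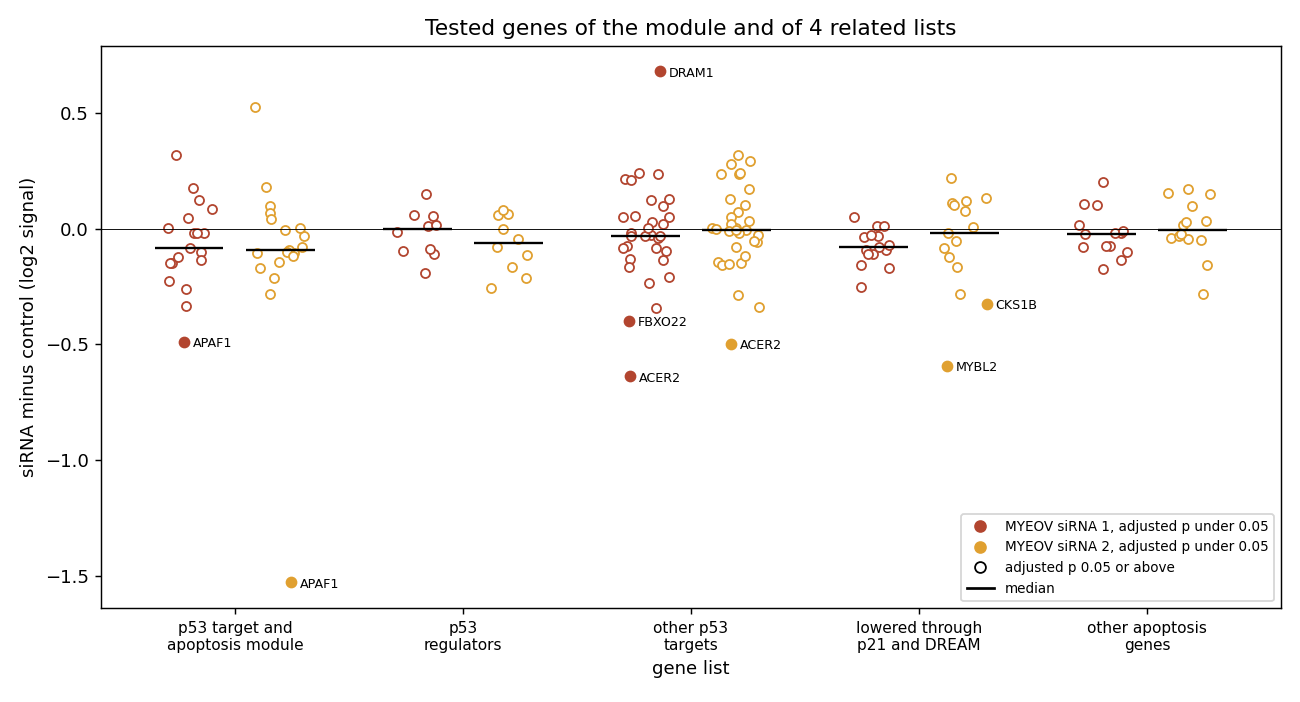
Log2 difference from control of the tested genes of the p53 target and apoptosis set and of 4 related lists, for MYEOV siRNA 1 (red, left of each pair) and MYEOV siRNA 2 (yellow, right); filled and named points have a limma adjusted p under 0.05 and black lines are medians. The medians lie between -0.09 and 0.00, and APAF1 with siRNA 2 lies lowest, at -1.53.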

How the data were processed

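RNA of A549 cells was read on 6 Affymetrix whole-transcript arrays, 2 for each of MYEOV siRNA 1, MYEOV siRNA 2 and control siRNA. The deposited values are log2 signals. Per the submitters' processing notes the authors made them with RMA, of unstated version, which subtracts background, brings arrays to a common distribution and joins the probes of a transcript, and which compresses differences of dim transcripts. The precision is limited by the number of arrays. The genome build of the array design is not given in the sources used here.

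Of 53617 rows, 16098 had 1 gene symbol in the platform annotation, 0 had several and 37519 had none and are unnamed here. All 16098 gene identifiers were found in RefSeq for GRCh38.p14. For 779 genes with several rows the row with the highest mean was used. Genes with a mean at or above 5.45 were fitted with limma 3.58.1 in R 4.3.3 over all 6 arrays in 3 groups (3 residual and 4.09 prior degrees of freedom). The fit was tested on simulated data. Figures used matplotlib 3.10.9.

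The genes, lists and tests were chosen with earlier results of these data known. Every gene of the set with a row could be named, and of the related lists those called in a comparison. EDA2R, ATF3 and PMAIP1, which were not called, were named outside this rule after their values were seen. The alternatives were no filter, a 75th percentile filter, averaged rows, every row, quantile normalization, median centring, only the groups compared, the replicate block, a trend and robust prior, and each array left out. A filter on 2 or more arrays, and each array left out with no filter for TP53INP1, were added after seeing the data.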

Additional observations from a re-analysis of the deposited data

Results flagged for a closer look

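APAF1 is singled out because the effects of the 2 siRNAs against the same control differed by a test of the difference itself. The log2 difference between the siRNA 1 effect and the siRNA 2 effect was 1.04 ± 0.07 (SE; limma, Benjamini-Hochberg adjusted p = 0.000392), with both siRNA 1 arrays above both siRNA 2 arrays. Over the alternatives that tested the gene the adjusted p ran from 4.19e-05 to 0.00917. The cause was not tested.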

How the results depend on the processing

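The precision is set by 2 arrays per group, and the dim genes TP53INP1, BCL2 and BCL2L11 are not tested at the filter used. With no filter fewer genes are called over the whole table. With siRNA 1, the number of called genes in the set was 1, and it was 2 with the replicate block, with the trend and robust prior and with a filter on 2 or more arrays, and from 0 to 1 with an array left out, 0 without any siRNA 1 or control array. With siRNA 2 it was 1, and 2 with no filter, with quantile normalization, with the trend and robust prior and with a filter on 2 or more arrays, and 1 with each array left out. Between the siRNAs it was 1, and 0 with the 75th percentile filter, which APAF1 did not pass. With the filter on 2 or more arrays the added call is TP53INP1, which passes that filter only through the siRNA arrays where it is high, so these counts are no independent support. Some counts of 1 hide a change of gene: with siRNA 1 the 1 call was TP53INP1 with no filter and MCL1 with the 75th percentile filter, and with siRNA 2 it was RRM2B with the 75th percentile filter. Over all genes, siRNA 1 against control gave 347 calls and 39 with no filter, siRNA 2 gave 508, 139 with no filter and 331 with only the groups compared, and the difference between the siRNAs gave 681 and 195. With an array left out these counts ran from 58 to 235, from 207 to 331 and from 226 to 618, lower by over 1.5 times without any array of the groups compared and, for siRNA 2, also without either siRNA 1 array. MYEOV with siRNA 1 had an adjusted p of 0.0215 with the filter and 0.136 with no filter, and 0.00930 to 0.146 with an array left out (not called without any siRNA 1 or control array), and with siRNA 2 it was called throughout (0.00140 to 0.0468). The log2 differences of the genes followed under the alternatives (MYEOV, APAF1, TP53INP1, RRM2B, MCL1, DRAM1, ACER2, FBXO22, MYBL2 and CKS1B) kept their sign in each of them, and other genes were not followed. Arrays with the same replicate number deviated together over the tested genes (correlations of 0.265, 0.205 and 0.251 between groups), but 2 numbers cannot show that they pair the samples. With the replicate block MCL1 was called with siRNA 1 (limma adjusted p = 0.0354) and no other call among the 19 genes changed, while the log2 interval of GDF15 narrowed to -0.17 to 0.13 with siRNA 1 and -0.18 to 0.12 with siRNA 2.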
